A study of Rattus norvegicus with 4 samples.

Results

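The genes described here are Sdc1, Ltbp2, Sparc, Fn1 and Anxa1, 5 of the 9653 genes named on a rat array, which encode a cell surface proteoglycan, secreted matrix proteins and an annexin. They were picked by their platform gene symbols, with earlier results of these data known, to show which of them turn direction between 11 and 20 weeks of age. The values that chose them are the log2 ratios on all 4 arrays, so those values are given as a description with no test. The 5 genes have 6 probes, 2 for Sdc1 and 1 for each of the others.

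Whole retinas of albino Lewis rats, raised from birth under a day and night cycle, were compared at 5, 11 and 20 weeks of age. Retinas were pooled, and their amplified RNA was labelled with Cy5 or Cy3 and hybridised on 4 two-colour arrays, of which 2 paired 11 weeks with 5 weeks and 2 paired 20 weeks with 5 weeks, in both dye orientations. The labels give no treatment for any group. The sources used here do not say how many animals a pool held or whether both arrays of a pair held separate RNA. Every p-value below is therefore set against differences among arrays, possibly technical alone, and would be no test of age if the RNA was shared.

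The extracellular matrix of the retina lies mainly in its vessel walls, in the inner limiting membrane laid down at the Müller cell endfeet, and around the photoreceptors. Matricellular proteins are secreted into that matrix and modulate how cells attach to it, rather than building its fibres. Syndecans carry heparan sulfate chains on the cell surface and bind matrix proteins and growth factors. Fibrillin-type microfibrils, with which latent TGF-beta binding proteins associate, hold growth factors in store and form the zonule of the lens.

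A change below is a log2 ratio of an older age over 5 weeks, minus the median of the named probes on its array, so that 1 means a doubling relative to the median probe. The deposited ratio is likely Cy5 over Cy3, and was read so, because each title names the Cy5-labelled age first. If the direction was the reverse, all signs below are reversed too, and the same genes turn direction. Before centring, the deposited medians were -0.05 (Cy5) and -0.13 (Cy3) for 11 weeks, and 0.54 (Cy5) and -0.01 (Cy3) for 20 weeks, the dye being that of the older age. Without centring, every 20-week change is higher by 0.28 and every 11-week change by 0.04, so a 20-week change between -0.28 and 0 has the opposite sign as deposited. Over the 12750 named probes, the arrays of the 11-week pair had a Pearson correlation of -0.33 and those of the 20-week pair of 0.15 once turned to older over 5 weeks. As deposited, arrays with the older retina in the same dye correlated at 0.69 for Cy5 and 0.58 for Cy3. These arrays thus shared more by dye than by age, and these correlations across probes are a description. Ratios give no level, so the labelled tissue could not be checked by the presence of its markers, and fewer cells of a type cannot be told apart from less RNA per cell.

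Sdc1, Ltbp2 and Anxa1 lay above the array median at 11 weeks and below it at 20 weeks, on both arrays of each age. Sparc lay below the median at both ages, and further below at 20 weeks. Fn1 lay above it at both ages. At 11 weeks 4 of the 5 genes were above the median on both arrays, as were 20.5% of all genes, and Sparc was below it on both, as were 20.2%. At 20 weeks Fn1 was above the median on both arrays, as were 27.1% of all genes, and the 4 others were below it on both, as were 26.7%. The plot of the changes by array shows each value.

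**Figure D1:**
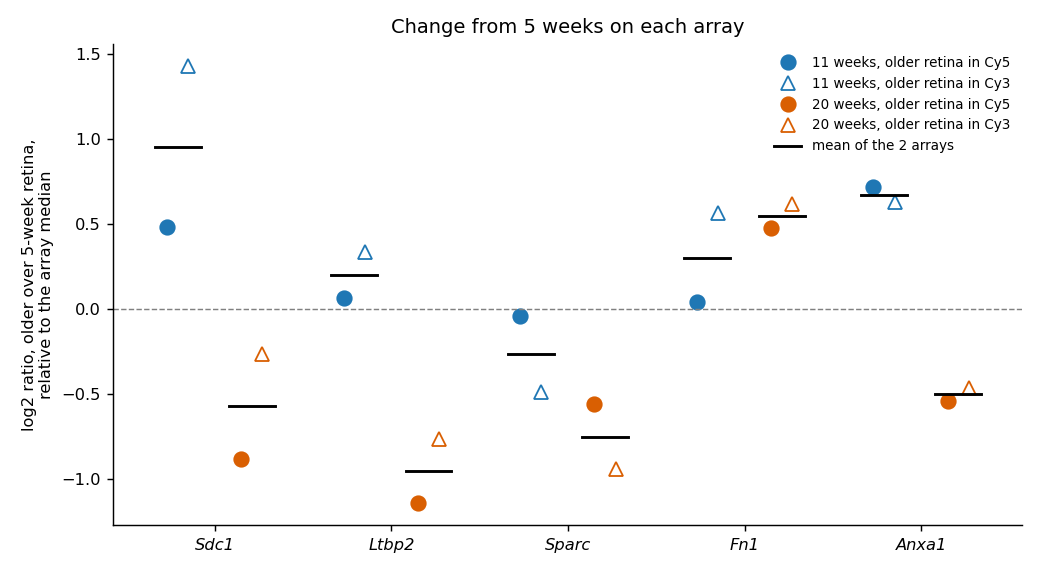
Log2 ratio (older age over 5 weeks, array median subtracted) for the 5 genes on each of the 4 arrays (blue, 11 weeks; orange, 20 weeks; filled circles, older age in Cy5; open triangles, older age in Cy3; bars, mean of the 2 arrays). Sdc1, Ltbp2 and Anxa1 have both blue points above 0 and both orange points below 0, while Sparc stays below 0 and Fn1 above it.

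The promoters of Sdc1, Ltbp2 and Anxa1 are shown because these 3 genes share a pattern across the ages. They are RefSeq sequences of build GRCr8, 250 bases before to 50 after the annotated start, read 5′ to 3′ on the strand of the gene. Capitals mark matches, on either strand, to the AP-1 site TGANTCA, the GC box GGGCGG, the SMAD element CAGACA, the CCAAT box CCAAT or the TATA box TATAAA. Sdc1 is at chr6:37281791-37282090 on the plus strand, Ltbp2 at chr6:110257249-110257548 on the minus strand and Anxa1 at chr1:227303683-227303982 on the minus strand.
Sdc1: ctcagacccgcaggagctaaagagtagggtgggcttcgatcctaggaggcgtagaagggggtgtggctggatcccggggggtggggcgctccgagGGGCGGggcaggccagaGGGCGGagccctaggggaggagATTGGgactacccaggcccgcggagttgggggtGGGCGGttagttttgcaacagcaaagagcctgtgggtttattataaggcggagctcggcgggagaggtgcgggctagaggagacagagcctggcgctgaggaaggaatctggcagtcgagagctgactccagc
Ltbp2: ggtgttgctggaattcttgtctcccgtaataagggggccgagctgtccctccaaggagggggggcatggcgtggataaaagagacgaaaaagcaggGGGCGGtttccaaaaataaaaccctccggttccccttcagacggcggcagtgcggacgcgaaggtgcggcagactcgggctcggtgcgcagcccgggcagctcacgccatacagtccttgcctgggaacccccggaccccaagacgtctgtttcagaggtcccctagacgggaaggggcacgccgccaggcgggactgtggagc
Anxa1: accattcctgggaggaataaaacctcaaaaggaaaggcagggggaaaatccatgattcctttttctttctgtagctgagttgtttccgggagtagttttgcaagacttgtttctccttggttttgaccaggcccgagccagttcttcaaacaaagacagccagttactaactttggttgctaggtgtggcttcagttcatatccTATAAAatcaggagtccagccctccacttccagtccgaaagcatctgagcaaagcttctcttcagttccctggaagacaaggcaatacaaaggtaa

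The Sdc1 window held 3 GC boxes, starting 155, 138 and 83 bases before the start, and 1 CCAAT box in reverse. The Ltbp2 window held 1 GC box, 154 bases before the start. The Anxa1 window held neither, and had a TATA box 46 bases before the start. The Sparc window, at chr10:40038767-40039066 on the minus strand, held 1 SMAD element in reverse and none of the others. GC boxes were in 33.1% of the 33469 promoter windows of the same length, CCAAT boxes in 37.5%, TATA boxes in 14.2%, SMAD elements in 21.1% and AP-1 sites in 7.33%. The AP-1 letters were found in 0 of these 4 windows. GC content was 64.7% for Sdc1, 63.3% for Ltbp2, 61.0% for Sparc and 45.0% for Anxa1, against a median of 51.7%. None of the 5 motifs was in all 3 windows of the genes that turned. A match is a description of the letters and not of binding.

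Sdc1 encodes syndecan-1, a transmembrane heparan sulfate proteoglycan best known from epithelia and plasma cells. At 11 weeks it lay at 0.48 when labelled with Cy5 and at 1.43 when labelled with Cy3. Both values were above the array median, and the mean of 0.95 ± 0.67 (SD, n = 2), a 1.94-fold higher ratio, ranked 1 among 9652 genes measured on all arrays. At 20 weeks it lay at -0.88 in Cy5 and at -0.26 in Cy3. The mean was -0.57 ± 0.44 (SD, n = 2), a ratio of 0.672, which ranked 49 from the lowest. Both 20-week values lay below both 11-week values, and the arrays of a pair differed by more for Sdc1 than for any of the other 4 genes.

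The 2 Sdc1 probes agreed in direction on every array. One lay at 0.36 and 1.32 on the 11-week arrays and at -0.54 and -0.36 on the 20-week arrays, with the Cy5 array first in each pair. The other lay at 0.60 and 1.54 on the 11-week arrays and at -1.22 and -0.17 on the 20-week arrays. The means of both probes differed by 0.23 at 11 weeks and by 0.25 at 20 weeks, against medians of 0.12 and 0.17 over the 1683 genes with 2 probes. By their means the probes thus gave 1 pattern in 2 sizes, with the second probe further from the median at both ages. On the 20-week Cy3 array alone the second probe was nearer the median, at -0.17 against -0.36. The -0.54 of the first probe is a deposited value of exactly 0 after centring, so the shared direction on that array rests on the centring.

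Anxa1 encodes annexin A1, a calcium-dependent phospholipid-binding protein that is induced by glucocorticoids, is exposed on the cell surface and damps inflammation through formyl peptide receptors. It is therefore a matrix gene only in the loose sense of acting at the cell surface. On the 11-week arrays it lay at 0.71 in Cy5 and 0.63 in Cy3. On the 20-week arrays it lay at -0.54 in Cy5 and -0.47 in Cy3. The means were 0.67 ± 0.06 at 11 weeks and -0.50 ± 0.06 at 20 weeks (SD, n = 2 each), or ratios of 1.59 and 0.705, and the small spread at 20 weeks rests on a deposited value of exactly 0. These means ranked 11 from the highest and 94 from the lowest among all genes.

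The deposited value of Anxa1 on the 20-week Cy5 array was exactly 0, and so was that of the first Sdc1 probe. On that array 22 named probes stood at exactly 0, 17 at the step of 0.001 below it and 1 at the step above, against a mean of 3.25 probes for each step within 0.01 of 0. What an exact 0 stands for is not given in the sources used here, and after centring it becomes minus the array's median. The value of Anxa1 on that array therefore comes from the centring alone, and 20 weeks rests for Anxa1 on the other array, at -0.47 centred and -0.46 as deposited. Without the values of exactly 0, the 20-week mean of Sdc1 was -0.74, with both arrays below the median, and the genes that turned were Sdc1 and Ltbp2, 2 of the 5, since Anxa1 had 1 value left at 20 weeks.

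Ltbp2 encodes latent TGF-beta binding protein 2, a secreted microfibril component of the fibrillin family, whose human gene is known for mutations in congenital glaucoma and lens zonule defects. At 11 weeks it lay at 0.06 in Cy5 and 0.33 in Cy3, with a mean of 0.20 ± 0.19 (SD, n = 2) that ranked 592 from the highest. At 20 weeks it lay at -1.14 in Cy5 and -0.77 in Cy3. That mean of -0.95 ± 0.26 (SD, n = 2), a ratio of 0.516, was the fourth lowest, at rank 4 of 9652. Ltbp2 thus stood close to the median at 11 weeks and far below it at 20 weeks, and its count as a turned gene needs the 11-week Cy5 array, where it was 0.06 above the median.

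Sparc encodes osteonectin, a secreted collagen-binding glycoprotein and the founding member of the matricellular class. At 11 weeks it lay at -0.04 in Cy5 and -0.49 in Cy3, a mean of -0.27 ± 0.31 (SD, n = 2). At 20 weeks it lay at -0.56 in Cy5 and -0.94 in Cy3. The mean of -0.75 ± 0.27 (SD, n = 2), a ratio of 0.594, ranked 14 from the lowest. All 4 values were below the median, and both 20-week values were below both 11-week values. As deposited, Sparc was at -0.02 on the 20-week Cy5 array and -0.93 on the Cy3 array.

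Fn1 encodes fibronectin, which cells assemble into fibrils through integrins. On the 11-week arrays it lay at 0.04 in Cy5 and 0.56 in Cy3, a mean of 0.30 ± 0.37 (SD, n = 2). On the 20-week arrays it lay at 0.47 in Cy5 and 0.61 in Cy3, a mean of 0.54 ± 0.10 (SD, n = 2), or a 1.46-fold higher ratio. The values of the ages overlapped. Fn1 ranked 128 from the highest at 11 weeks and 187 at 20 weeks, and its 20-week change was the opposite of that of the other 4 genes.

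No array held both 20 and 11 weeks, each array had a chip number of its own, and whether the pairs were processed together is not given, so processing and age cannot be told apart between these ages. The mean change at 20 weeks minus that at 11 weeks was -1.53 for Sdc1, the lowest of 9652 genes. It was -1.17 for Anxa1, at rank 4 from the lowest, and -1.15 for Ltbp2, at rank 5. Sparc had a difference of -0.49, at rank 61 from the lowest, and Fn1 one of 0.24, at rank 1005 from the highest. In linear terms, the 20-week ratio was 0.347 times the 11-week ratio for Sdc1, 0.443 times for Anxa1, 0.450 times for Ltbp2, 0.714 times for Sparc and 1.18 times for Fn1. Both 20-week arrays lay below both 11-week arrays for 4 of the 5 genes, Fn1 being the exception, and for 11.1% of all genes. The genes were chosen for this contrast, so nothing is read from that count.

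A gene was counted as turned if both arrays of one age lay on one side of the median and both arrays of the other age on the other. By this rule 3 of the 5 genes were higher at 11 weeks and lower at 20 weeks, as were 250 of 9652 genes, or 2.59%. The opposite turn was made by 0 of the 5 and by 288 genes, or 2.98%. A stricter rule, with both means at least 0.2 from 0, was met by 8 genes that turned from higher to lower, or 0.0829%, and by 51 that turned from lower to higher, or 0.528%. Sdc1 and Anxa1 were among the 8, though whether Anxa1 and Ltbp2 met this rule changed with the processing of the arrays. Ltbp2 was just outside, with an 11-week mean of 0.196, and the gene just inside was Pde1b, a calmodulin-dependent phosphodiesterase, with 11-week and 20-week means of 0.20 and -0.22.

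The other genes among the 8, named after their values were seen, include further matrix genes. Ccdc80, a secreted matrix-associated protein, lay at 0.26 at 11 weeks and -0.79 at 20 weeks. Fbln1, the matrix glycoprotein fibulin-1 that binds fibronectin, lay at 0.26 and -0.44, and Ogn, the small leucine-rich proteoglycan osteoglycin, at 0.21 and -0.44. The count of Fbln1 as turned needs the 11-week Cy5 array, where it was 0.0015 above the median, and Fbln1 did not turn as deposited. The remaining genes were Tsks, a testis-specific kinase substrate, at 0.30 and -0.75, and Timd2, a cell surface receptor, at 0.24 and -0.31. In all, 4 of the 8 were in the matrix gene lists described below, which cover 133 of the 9652 measured genes, 2 of the 4 being Sdc1 and Anxa1. The lists and the 5 genes were chosen with earlier results of these data known, so nothing is read from that count. As deposited, the turn from higher to lower was made by 8 genes in place of 250. They were Sdc1, Ltbp2, Ccdc80, Tsks, Pde1a, Akirin2, Ogn and Pax7, so Sdc1 and Ltbp2 turned with and without centring while Anxa1 did not turn without it. Without centring, the turn of Ltbp2 needs the 11-week Cy5 array, where it was 0.016 above 0. The plot of both ages for all genes shows where the 5 genes lie.

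**Figure D2:**
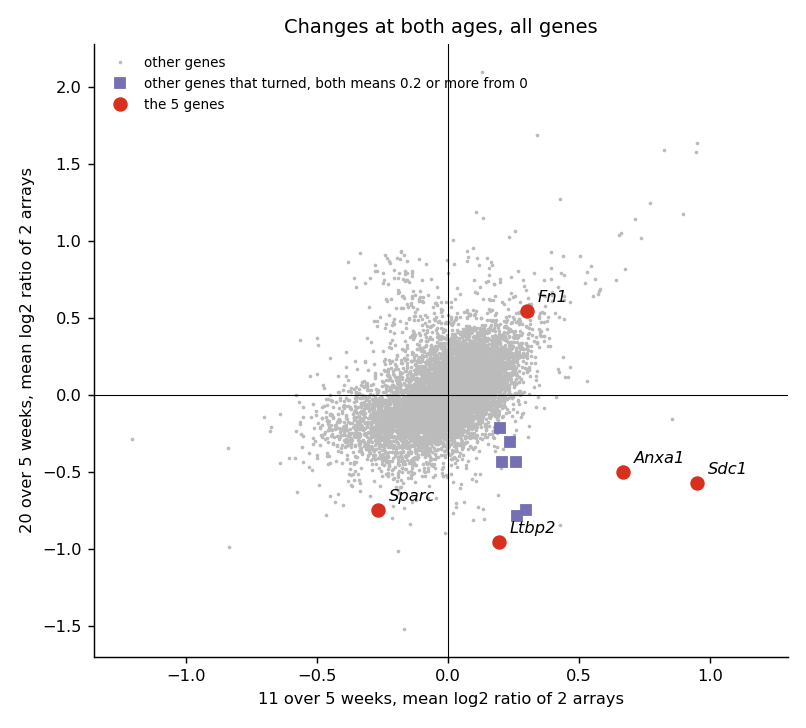
Mean log2 ratio of 2 arrays at 11 over 5 weeks (horizontal) and at 20 over 5 weeks (vertical), relative to the array medians, for 9652 genes (grey points), the 5 genes (red) and the other genes that turned from higher to lower with both means at least 0.2 from 0 (purple). Both axes share the 5-week retina. Sdc1 and Anxa1 lie far into the lower right, Ltbp2 at the lower edge, Sparc at the lower left and Fn1 at the upper right.

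Genes related to these 5 were taken from 8 matrix gene lists. Over the 128 measured list genes other than the 5, the median change was 0.07 at 11 weeks, against 0.02 over all genes, and at 20 weeks it was -0.004, against 0.01. The limma fit of all 4 arrays without a dye effect called 0 genes in any comparison at a Benjamini-Hochberg adjusted p under 0.05, with 367, 888 and 270 genes at an unadjusted p under 0.05 at 11 weeks, at 20 weeks and between 20 and 11 weeks. The fit without a dye effect was planned as the main test, and a gene-wise dye effect as an alternative. No gene called below was called by the main fit. Called higher or lower below means called by the limma fit with a gene-wise dye effect. That fit leaves 1 residual degree of freedom, and its calls depend on the centring. It takes a difference between the arrays of a pair that both ages share as a dye effect. Its p-values therefore do not use the SD printed beside them. The fit with a dye effect called 8.95%, 31.7% and 4.73% of all genes in these comparisons, and as deposited 0, 133 and 1 genes. Of the 133 genes called as deposited at 20 weeks, 132 were higher and 1 lower, against 1715 higher and 1342 lower after centring. Nearly every call of lower at 20 weeks below thus needs the centring, and so do most calls of higher there. Every call at 11 weeks needs it too, and nearly every call between 20 and 11 weeks. Of the 128 genes the fit with a dye effect called 10 higher and 1 lower at 11 weeks, where it called 2.61% of all genes higher and 6.34% lower. At 20 weeks it called 28 of the 128 higher and 23 lower, against 17.8% and 13.9% of all genes. Between 20 and 11 weeks it called 6 higher and 9 lower, against 3.55% and 1.18% of all genes.

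Sdc1 stood apart in size from the other syndecans at 11 weeks, where the means of Sdc2, Sdc3 and Sdc4 lay between -0.04 and 0.05 and none was called. The 2 arrays of each lay on opposite sides of the median. They were at -0.14 and 0.14 for Sdc2, -0.16 and 0.27 for Sdc3, and 0.24 and -0.32 for Sdc4 (Cy5 array first). At 20 weeks the syndecans had the same sign. Sdc2 was called lower at -0.31 ± 0.03 (SD, n = 2; limma adjusted p = 0.00994) and Sdc3 at -0.42 ± 0.39 (adjusted p = 0.00187). Sdc4, added to complete the family, was called lower at -0.32 ± 0.55 (adjusted p = 0.00803), although its 2 arrays lay on opposite sides of the median. Of the 11 other cell surface proteoglycans and coreceptors measured, 3 were called higher and 5 lower at 20 weeks, with a median of -0.06 (0.21 as deposited), and 1 higher and 0 lower at 11 weeks. Gpc5, a glypican, made the opposite turn to Sdc1. It was called higher at 20 weeks at 0.56 ± 0.13 (SD, n = 2; adjusted p = 0.000349), and lay at -0.18 ± 0.12 at 11 weeks, where it was not called. Tgfbr3, the TGF-beta coreceptor betaglycan, was called higher at both ages, at 0.27 ± 0.24 at 11 weeks and 0.47 ± 0.29 at 20 weeks (limma adjusted p = 0.0329 and 0.000967).

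Among elastic fibre genes, Ltbp2 had the lowest 20-week value of the family. Of the 17 others measured, 1 was called higher and 5 lower at 20 weeks, with a median of -0.13 (0.15 as deposited), and 1 was called higher and 4 lower between 20 and 11 weeks. At 11 weeks only Fbln1 was called among them, as higher, at 0.26 ± 0.37 (SD, n = 2; adjusted p = 0.0442). At 20 weeks Fbn2, the microfibril protein fibrillin-2, was called lower at -0.48 ± 0.45 (adjusted p = 0.000954), Mfap4, an elastin-binding glycoprotein, at -0.47 ± 0.03 (adjusted p = 0.000925) and Fbln1 at -0.44 ± 0.23 (adjusted p = 0.00173). Mfap5, another microfibril protein, was called higher at 0.49 ± 0.30 (adjusted p = 0.000711). The closest relatives of Ltbp2 had means near the median at 20 weeks, with Ltbp1 at -0.10 and Ltbp4 at -0.14, and neither was called. The 20-week arrays of Ltbp1 lay on opposite sides of the median, at 0.25 in Cy5 and -0.44 in Cy3.

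For the TGF-beta pathway, 4 of 16 measured genes were called higher and 2 lower at 20 weeks, with a median of -0.05 (0.22 as deposited), and 1 was called higher at 11 weeks. The ligand Tgfb2 was called lower at 20 weeks at -0.41 ± 0.40 (SD, n = 2; limma adjusted p = 0.00211), the endothelial receptor Acvrl1 higher at 0.43 ± 0.22 (adjusted p = 0.00159) and the transcriptional corepressor Tgif1 higher at 0.34 ± 0.20 (adjusted p = 0.00433). Between 20 and 11 weeks 0 of the 16 were called.

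Sparc had the lowest 20-week value of the matricellular list, with Fstl1, a secreted protein of the same domain family, next to it. Fstl1 was called lower at -0.74 ± 0.19 at 20 weeks (SD, n = 2; limma adjusted p = 0.000263), against -0.17 ± 0.11 at 11 weeks, where it was not called. Of the 18 other matricellular genes, 3 were called higher and 3 lower at 20 weeks, and 1 higher and 0 lower at 11 weeks. The median was 0.06 at 20 weeks. Sparcl1, the closest relative of Sparc, was at -0.25 ± 0.33 at 11 weeks, where it was not called, and was called lower at -0.24 ± 0.15 at 20 weeks (adjusted p = 0.0305), which as deposited is above 0. Ccn5 made the opposite turn to Sdc1, at -0.21 ± 0.22 at 11 weeks, not called, and called higher at 0.49 ± 0.02 at 20 weeks (adjusted p = 0.00165). Spp1, osteopontin, was called higher at both ages, at 0.34 ± 0.18 and 0.34 ± 0.20 (adjusted p = 0.0139 and 0.00464).

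Of 13 measured receptors and partners of fibronectin, 2 were called higher and 4 lower at 20 weeks. The fibronectin receptor subunit Itga5 was called higher at 0.35 ± 0.28 (SD, n = 2; limma adjusted p = 0.00445) and Itga8 at 0.29 ± 0.11 (adjusted p = 0.00899). Ilk, an integrin-linked adaptor, was called lower at -0.33 ± 0.28 (adjusted p = 0.00928). At 11 weeks 1 of the 13, Fbln1, was called.

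Of 11 annexins and annexin partners other than Anxa1, 3 were called higher and 1 lower at 11 weeks, and 3 higher and 3 lower at 20 weeks. Anxa2, a membrane-linking annexin, was called in the directions of Anxa1, at 0.26 ± 0.39 at 11 weeks (SD, n = 2; limma adjusted p = 0.0385) and -0.23 ± 0.32 at 20 weeks (adjusted p = 0.0252), although it was at -0.01 on the 11-week Cy5 array and -0.002 on the 20-week Cy3 array, and as deposited its 20-week mean is above 0. Its partner S100a10 was called lower at both ages, at -0.29 ± 0.07 and -0.43 ± 0.20 (adjusted p = 0.0292 and 0.0019). Pla2g4a, the cytosolic phospholipase A2 that annexin A1 is known to inhibit, was called higher at both ages, at 0.26 ± 0.20 and 0.37 ± 0.21 (adjusted p = 0.0385 and 0.00296). Anxa6 was called higher at 20 weeks, at 0.54 ± 0.72, with its 2 arrays at 1.05 and 0.04. By the rule for turned genes Anxa2 did not turn, and 1 of the 11 did. That gene was Anxa5, at 0.11 at 11 weeks and -0.15 at 20 weeks, called at neither age. It did not turn as deposited. The plot of related genes shows these families.

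**Figure D3:**
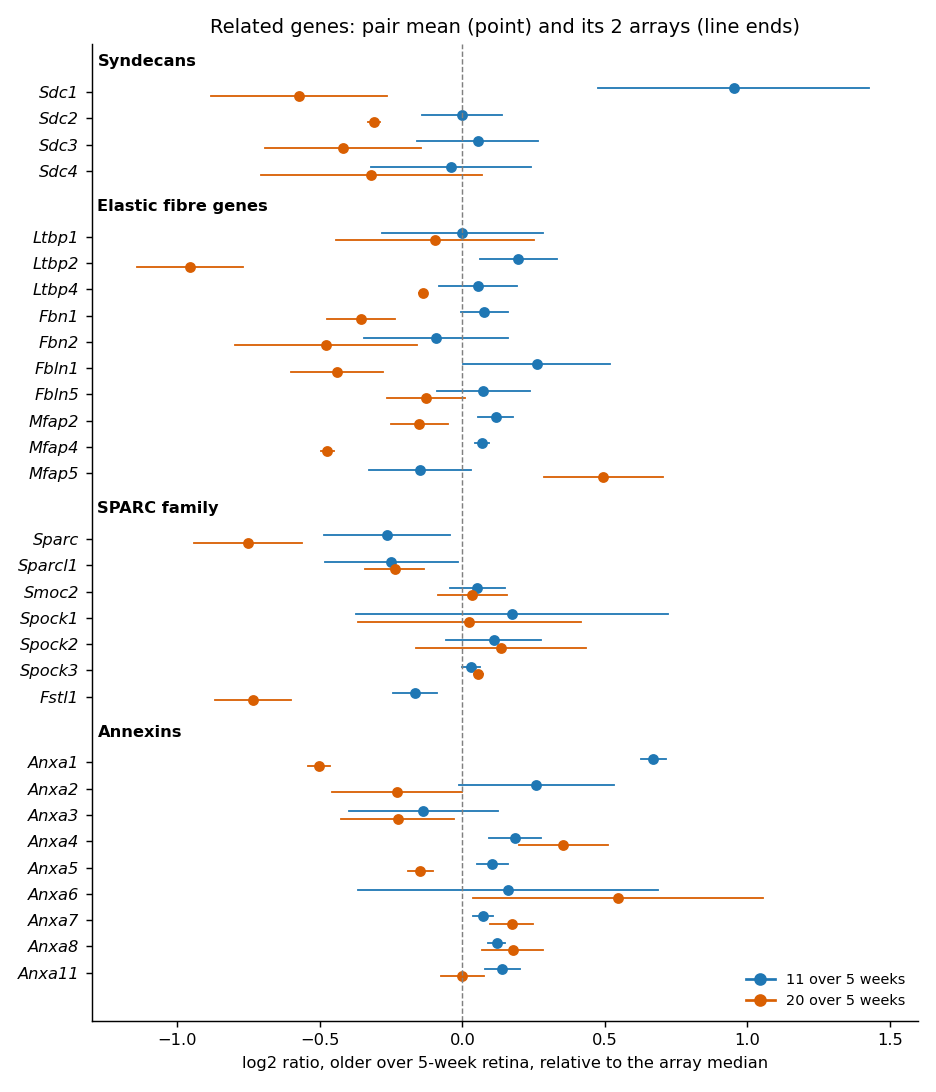
Log2 ratio (older age over 5 weeks, array median subtracted) for measured syndecans, elastic fibre genes, SPARC family genes and annexins (blue, 11 weeks; orange, 20 weeks). Points are means of the 2 arrays and line ends are the single arrays. Sdc1 and Anxa1 lie furthest to the right at 11 weeks, and Ltbp2 and Sparc furthest to the left at 20 weeks.

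Matrix proteases had 8 of 30 measured genes called higher and 3 lower at 20 weeks, with a median of 0.07. Ctsk, the collagen-cleaving cathepsin K, was called higher at 0.84 ± 0.41 (SD, n = 2; limma adjusted p = 6.58e-05), Mmp7, a matrix metalloproteinase that sheds syndecan-1, at 0.75 ± 0.31 (adjusted p = 0.000111) and Mmp14, a membrane-bound one, at 0.49 ± 0.30 (adjusted p = 0.000716). The inhibitor Timp2 was called lower at -0.31 ± 0.03 (adjusted p = 0.00748). At 11 weeks 2 were called higher, Mmp7 at 0.39 ± 0.16 (adjusted p = 0.011) and the protease Adamts1 at 0.39 ± 0.12 (adjusted p = 0.0107). Of 17 matrix proteoglycans, 5 were called higher and 1 lower at 20 weeks, with a median of 0.05. The 1 lower was Ogn (adjusted p = 0.00161), and the brain proteoglycan Ncan was called higher at 0.43 ± 0.10 (adjusted p = 0.00144).

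Markers of cells that carry these genes or that a dissection can bring along were read in the same way. Over all genes, 2.61% were called higher and 6.34% lower at 11 weeks, and 17.8% higher and 13.9% lower at 20 weeks. Of 16 Müller cell and astrocyte markers, 0 were called higher and 4 lower at 11 weeks, and 1 higher and 10 lower at 20 weeks, with medians of -0.05 and -0.27. Vim was at -0.45 ± 0.07 at 20 weeks. Of 14 vessel wall and fibroblast markers, 1 was called higher and 2 lower at 20 weeks, and the medians were 0.06 at 11 weeks and -0.02 at 20 weeks. The 2 called lower were the pericyte genes Rgs5 at -0.68 ± 0.41 and Pdgfrb at -0.60 ± 0.72 (SD, n = 2; limma adjusted p = 0.000211 and 0.000267), the arrays of Pdgfrb lying at -1.11 and -0.09. The 1 called higher was Tagln, a smooth muscle gene of the vessel wall, at 0.21 ± 0.43 (adjusted p = 0.0394), with arrays at 0.51 and -0.09. Of 10 cornea, conjunctiva and iris markers, 2 were called higher and 0 lower at 11 weeks, and 4 and 0 at 20 weeks, with medians of 0.17 and 0.12. Of 16 leukocyte and plasma cell markers, 2 and 3 were called higher and 0 lower, with medians of 0.07 at 11 weeks and 0.09 at 20 weeks. Lens markers were called lower in 7 of 12 at 11 weeks and 6 of 12 at 20 weeks, and 0 were called higher. Pigment epithelium and choroid markers had 8 measured genes and medians of 0.11 at 11 weeks and 0.04 at 20 weeks. Skeletal muscle markers had medians of -0.02 and 0.33. Of the 8 measured, 0 were called at 11 weeks, and 5 higher and 0 lower at 20 weeks, against 17.8% of all genes called higher. Rod markers had medians of -0.22 and -0.20. Of 19 measured, 9 were called lower at 11 weeks and 10 at 20 weeks, and 0 higher, against 6.34% and 13.9% of all genes called lower. Without centring, every 20-week median of these marker lists is higher by 0.28, so those below 0 lie above 0 as deposited. The part of these cells in the changes of the 5 genes was not tested.

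The genes whose values came nearest to each of the 5 were found by Euclidean distance over the 4 arrays. Nearest to Sdc1 was Defa5, an intestinal defensin, at a distance of 0.614, with 11-week values of 0.40 and 1.31 and 20-week values of -0.39 and 0.08 (Cy5 array first). Nearest to Anxa1 were Timd2 at 0.691, Ogn at 0.706 and Tsks at 0.718. Nearest to Ltbp2 were Rap1gds1, a guanine nucleotide exchange regulator, at 0.421, Tmem176b at 0.465 and Cnp, a myelin enzyme, at 0.466. Nearest to Sparc were Gapdhs at 0.196, Tlcd3b at 0.289 and the glycolytic enzyme gene Tpi1 at 0.301. Nearest to Fn1 were Bcl2l1, an apoptosis inhibitor, at 0.134, Rln1 at 0.170 and Hipk4 at 0.186. Medians over all genes were 1.82 from Sdc1, 1.28 from Anxa1, 1.48 from Ltbp2, 1.29 from Sparc and 1.04 from Fn1. Among the 5 genes the smallest distance was that between Sdc1 and Anxa1, at 0.923, and the largest that between Fn1 and Sparc, at 2.14.

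The plot of the changes under each setting shows how they move with the processing of the arrays. As deposited, the 20-week changes were -0.30 for Sdc1, -0.68 for Ltbp2, -0.48 for Sparc, -0.23 for Anxa1 and 0.82 for Fn1. The mean changes of the 5 genes kept their sign at both ages without centring, and of the 20-week means that of Anxa1 was nearest to 0. Single arrays did not all keep it. As deposited, Fn1 was at -0.005 on the 11-week Cy5 array and Anxa1 at exactly 0 on the 20-week Cy5 array.

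**Figure D4:**
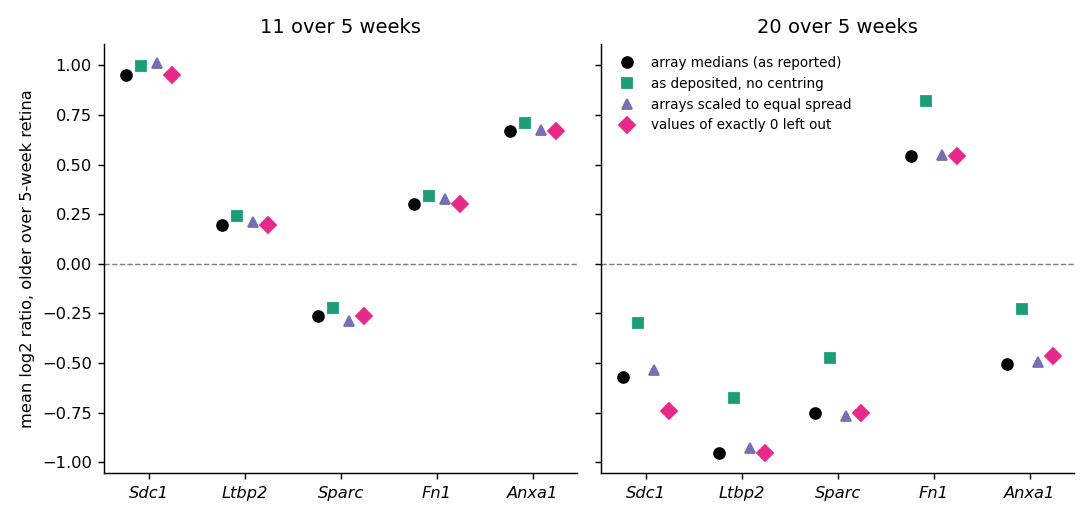
Mean log2 ratio, older age over 5 weeks, for the 5 genes at 11 weeks (left) and 20 weeks (right) with arrays centred on their medians (black), as deposited (green), scaled to equal spread (purple) and with values of exactly 0 left out (pink). At 20 weeks the green points lie 0.28 above the black ones, and no point crosses 0.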

How the data were processed

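Retinal RNA of 11-week and 20-week albino Lewis rats was hybridised against 5-week RNA on 4 two-colour arrays, 2 per age with dyes exchanged. Per the labels' protocols, retinas were pooled and total RNA was amplified and labelled. The authors deposited 1 log2 ratio per probe and array, judged to be log2 from a ceiling at log2 of 100000 that 251 probes without a listed gene reached. No scanner values were analysed here and the normalization is not stated, so no background filter was made. The number of arrays limits the precision.

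Of 22575 probes, 12750 had 1 gene in the platform table, 5 had several and 9820 none, and 12720 of their identifiers were found in the GRCr8 gene table, which changed 0 symbols. Each array was centred on the median of these probes, turned to older over 5 weeks, and averaged by gene. Gene tests used limma 3.58.1 in R 4.3.3 over 9652 genes, without a dye effect (2 residual degrees of freedom) and with one (1). With 2 arrays per age, an absence of calls by the fit without a dye effect does not show an absence of change. The members, lists and rules were chosen with earlier results of these data known. Named list genes were those with the largest changes of 1 sign on both arrays of a pair, up to 3 per matrix list and 2 per marker list, for each direction and age. Sdc4, Ltbp1, Ltbp4, Tagln and the genes that turned were named after their values were seen. Alternatives were the dye effect, no centring, centring on all probes, scaling, single probes, unnamed probes, and leaving out each array.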

Additional observations from a re-analysis of the deposited data

Results flagged for a closer look

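For the genes below, both arrays of one age lay on one side of the array median and both arrays of the other age on the other. The values are the mean change at 20 weeks minus that at 11 weeks. The genes were singled out by the same 4 values, so no p-value is given and the difference was not tested independently for any of them. It was -1.53 for Sdc1, -1.17 for Anxa1 and -1.15 for Ltbp2. Among other genes it was -1.05 for Ccdc80, -1.05 for Tsks, -0.70 for Fbln1, -0.65 for Ogn, -0.55 for Timd2, -0.54 for Mfap4, -0.42 for Pde1b and -0.27 for Mfap2. Fbln1 is among them by 0.0015 on the 11-week Cy5 array. The difference between the ages is given in the same way for the next genes. It ran the other way for Gpc5, at 0.74, and Ccn5, at 0.70. No array held both ages.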

How the results depend on the processing

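Of the changes of the 5 genes at 11 weeks, at 20 weeks and between them, 1 changed sign under an alternative. The 20 minus 11 week difference of Fn1 ranged from -0.018 to 0.504 when 1 array was left out, and was -0.018 without the 11-week Cy5 array. As deposited, 5 values moved by more than the spread of their arrays: the 20-week changes of Ltbp2 (-0.68), Sparc (-0.48), Fn1 (0.82) and Anxa1 (-0.23), and the 20 minus 11 week difference of Anxa1 (-0.94). As deposited, the genes that turned from higher to lower numbered 8, of which 4 met the stricter rule, Sdc1 and Ltbp2 among them but not Anxa1. With arrays scaled to equal spread, 10 genes met the stricter rule, with Sdc1, Ltbp2 and Anxa1 among them. Without values of exactly 0, a choice made after seeing the data, 2 of the 5 genes turned, Sdc1 and Ltbp2, and Sdc1 met the stricter rule. With single probes, 78 turned strictly from lower to higher.

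The limma fit with a dye effect called 864, 3057 and 457 genes at 11 weeks, at 20 weeks and between 20 and 11 weeks, where the fit without it called 0. As deposited, the fit without it called 0, 95 and 1, and with it 0, 133 and 1. At 20 weeks these were 94 higher and 1 lower without it and 132 higher and 1 lower with it, against 1715 higher and 1342 lower after centring with it. With a dye effect, centring on all probes gave 451 at 11 weeks and 274 between 20 and 11 weeks, and keeping unnamed probes gave 2, 1533 and 0. Without a dye effect, leaving out 1 array gave 0 to 5 calls at 20 weeks, with 5 without either 11-week array. The runs that joined a dye effect with another setting were added after seeing the data. The median of the matrix lists without the 5 genes was 0.11 at 11 weeks, 0.27 at 20 weeks and 0.17 between them as deposited, -0.017 at 20 weeks with scaling, and without 1 array 0.006 to 0.016 at 20 weeks and -0.057 to -0.024 between 20 and 11 weeks. The cause of these shifts was not tested, except that leaving arrays uncentred adds a constant. No paired analysis was possible because the labels give no replicate numbers, and the fit with a dye effect matches arrays of the 2 ages by dye instead.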
